A study of Homo sapiens with 6 samples.

Results

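Transcript levels of 10 genes of Notch signaling were compared between parental KYSE70 cells and NRF2null-KYSE70 cells. The genes encode 3 receptors (NOTCH1, NOTCH2 and NOTCH3), 3 ligands (JAG1, JAG2 and DLL1), the DNA-binding protein RBPJ and 3 effectors transcribed downstream of the pathway (HES1, HEY1 and NRARP). They were taken by symbol from the 58884 genes of the expression table, and all 10 were among the 15994 genes with enough reads to be tested. KYSE70 is an established line of human esophageal squamous cell carcinoma, abbreviated ESCC, and carries a gain-of-function mutation in NFE2L2, the gene of the transcription factor NRF2. NRF2null-KYSE70 descends from 1 CRISPR-Cas9-edited cell of that line in which a coding exon of NFE2L2 was cut, so both lines share the genetic background of KYSE70, and a difference between them is a difference between this clone and its parent. Cells of both lines were untreated, and each line had 3 RNA-seq libraries, which the labels call replicates. No label says that the libraries came from separate cultures, so p-values measured only the spread between these libraries, which may be technical.

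Notch signaling passes between touching cells. A ligand of the Jagged or Delta family on one cell pulls on a receptor of its neighbor, which exposes the receptor to cleavage by ADAM10 and then by the gamma-secretase complex. The released intracellular domain enters the nucleus, binds RBPJ together with a Mastermind-like coactivator, and turns on genes such as the HES and HEY repressors and the feedback inhibitor NRARP. In stratified squamous epithelium the pathway is known for moving cells from the basal layer into differentiation, and NOTCH1 is often mutated in ESCC.

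RBPJ recognizes the letters TGGGAA, and often GTGGGAA, which contains them. Promoters of 3 genes are shown because they belong to RBPJ itself and to the effectors that it is known to switch on, and because they differ in these letters. Each is the 250 bases before a RefSeq transcription start on GRCh38.p14 (hg38), 5′ to 3′ on the strand of the gene, in lower case with every match on either strand in capitals.
HES1 (chr3:194135898-194136147, plus strand): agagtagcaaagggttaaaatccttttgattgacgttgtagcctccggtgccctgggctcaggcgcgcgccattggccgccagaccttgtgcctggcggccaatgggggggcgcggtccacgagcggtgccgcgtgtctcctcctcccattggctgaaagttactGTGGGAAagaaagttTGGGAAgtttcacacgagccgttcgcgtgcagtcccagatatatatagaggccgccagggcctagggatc
RBPJ, the second of its 5 listed starts (chr4:26319496-26319745, plus strand): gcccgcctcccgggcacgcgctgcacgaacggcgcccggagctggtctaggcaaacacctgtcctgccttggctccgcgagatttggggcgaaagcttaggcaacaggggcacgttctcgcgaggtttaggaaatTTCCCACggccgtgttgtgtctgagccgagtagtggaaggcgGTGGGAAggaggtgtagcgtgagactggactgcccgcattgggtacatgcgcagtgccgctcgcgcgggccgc
NRARP (chr9:137302272-137302521, minus strand): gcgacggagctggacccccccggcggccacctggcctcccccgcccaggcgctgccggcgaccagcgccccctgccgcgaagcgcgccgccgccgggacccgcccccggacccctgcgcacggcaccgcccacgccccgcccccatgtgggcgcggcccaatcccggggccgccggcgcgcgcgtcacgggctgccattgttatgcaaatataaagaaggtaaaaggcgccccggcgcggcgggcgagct
The HES1 promoter held 2 matches in the same orientation, starting 84 and 70 bases before the start and thus 14 bases apart, and the first of them was part of GTGGGAA. The RBPJ promoter held 2 matches to GTGGGAA in opposite orientation, 115 and 73 bases before the start, and the other 4 RBPJ starts held none. NRARP had no match in this window, nor had NOTCH1, NOTCH2, NOTCH3, JAG1 or JAG2, within 250 bases before to 50 after the start. TGGGAA was found in 24.0% of all 35116 promoters of the same length and GTGGGAA in 6.25%. The letters TGACNNNGC, the core of the antioxidant response element to which NRF2 binds, were found in none of the 12 promoters of these 8 genes and in 13.3% of all promoters. A match is a run of letters and not a measured site, and its absence says nothing about binding. DLL1 and HEY1 were not among the matched promoters.

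Gene-assigned reads ran from 52072801 to 63975313 per library, a range of 1.23 times. Values below are normalized counts, that is, reads per gene scaled by 1 factor per library, and library numbers follow the column order of each line. Fold changes are log2 values of NRF2null-KYSE70 over KYSE70, after adding 1 to each normalized count. A gene is called higher or lower where limma gave an adjusted p under 0.05, and past the fold threshold where its absolute log2 fold change was also at least 1. As a check of the labels, NFE2L2 (chr2:177218667-177392756) was examined in every library. It had normalized counts of 9839, 9906 and 10039.8 in KYSE70 against 5803, 6041 and 6434 in NRF2null-KYSE70. The lines did not overlap, and NRF2null-KYSE70 kept 61.4% of the mean of KYSE70 (log2 fold change -0.71, SE 0.0495, adjusted p = 9.37e-08 by limma). Transcripts of the targeted gene thus remained in the edited line, where the authors also saw a faint, smaller NRF2 protein band. Of all tested genes, 28.3% were lower, so a lower NFE2L2 does not by itself identify the edited line.

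The 10 Notch genes did not move as a group. HEY1 was lower and past the fold threshold, NOTCH2, NOTCH3 and DLL1 were higher by less than 2 times, HES1 and NRARP passed the adjusted p threshold with small changes in opposite directions, and NOTCH1, JAG1, JAG2 and RBPJ did not pass it. In counts, 1 of 10 genes was past both thresholds, against 14.7% of all tested genes (0 higher, against 7.23%, and 1 lower, against 7.43%), and 6 of 10 passed the adjusted p threshold, against 57.6%. By direction, 4 were higher, against 29.3% of tested genes, and 2 were lower, against 28.3%. For 7 of the 10, no library of one line lay within the range of the other, against 63.4% of tested genes. These were 4 higher ones, against 32.1%, and 3 lower ones, against 31.3%. Shares near those of the whole table are not a result about these genes. The median absolute log2 fold change was 0.16 for the 10 genes and 0.36 for all tested genes.

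**Figure D1:**
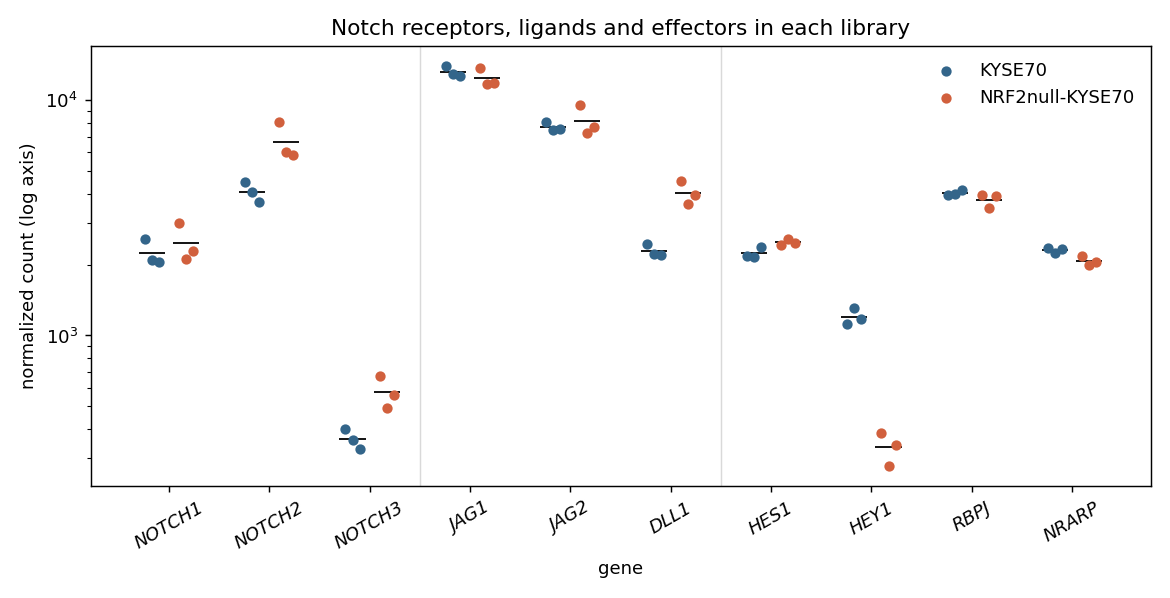
Normalized count (log axis) of each gene in each library, with 3 points per line and a black bar at the mean. The HEY1 points of NRF2null-KYSE70 lie between 278 and 384 and those of KYSE70 between 1119.7 and 1313, whereas the JAG1, JAG2 and NOTCH1 points of the lines overlap.

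Among the receptors, NOTCH2 and NOTCH3 were higher in NRF2null-KYSE70 and NOTCH1 was not told apart between the lines. NOTCH2 (ENSG00000134250, chr1:119911553-120100779, minus strand) is the receptor with the most reads in these cells. It had normalized counts of 4487, 4065 and 3705 in KYSE70 against 8092, 6006 and 5846 in NRF2null-KYSE70. All libraries of NRF2null-KYSE70 lay above all of KYSE70, with the first library of the clone well above its other two. The mean rose from 4086 ± 391 to 6648 ± 1253 (mean ± SD, n = 3), a 1.63-fold difference (log2 fold change 0.69, SE 0.107, adjusted p = 0.000115 by limma). Without that first library the log2 fold change was 0.54 (adjusted p = 2.51e-07 by limma).

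NOTCH2 has near-identical partial copies, the NOTCH2NL genes, and how reads with several alignments were counted was not stated, so its values are uncertain to the extent that reads were split. The copies held few reads. NOTCH2NLA stood at 20.3 ± 4.53 in KYSE70 and 38.7 ± 10.9 in the edited line (mean ± SD, n = 3), and NOTCH2NLC had 33.9 ± 5.24 and 19.9 ± 3.1. Neither passed the test (adjusted p = 0.0594 and 0.0892 by limma). NOTCH2NLR had means of 4.24 ± 2.79 and 8.28 ± 1.69 and NOTCH2NLB at most 1 read in a library, and both lay under the level needed for the test.

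NOTCH3 (ENSG00000074181, chr19:15159038-15200995, minus strand), a receptor best known from smooth muscle and also made in squamous epithelium, had normalized counts of 399, 360.1 and 329 in KYSE70 against 676, 492 and 561 in NRF2null-KYSE70. The lines did not overlap. The difference was 1.59-fold (log2 fold change 0.66, SE 0.129, adjusted p = 0.000756 by limma), from 363 ± 35.2 to 576 ± 92.6 (mean ± SD, n = 3).

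NOTCH1 (ENSG00000148400, chr9:136494433-136546048, minus strand), the receptor most tied to squamous differentiation, had normalized counts of 2573, 2097 and 2054 in KYSE70 against 3012, 2115 and 2291 in NRF2null-KYSE70. The first library of each line was its highest, and the lines overlapped. The log2 fold change was 0.13 with a 95% confidence interval of -0.12 to 0.39 (adjusted p = 0.362 by limma).

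The receptors also differed in their part of the pool. With counts divided by the kilobases of exon of each gene, NOTCH1 made up 39.8%, 37.3% and 39.0% of the summed receptor level in the KYSE70 libraries and 30.2%, 29.1% and 30.9% in those of NRF2null-KYSE70. NOTCH2 made up 52.0%, 54.1% and 52.7% in KYSE70 and 60.8%, 61.9% and 59.0% in NRF2null-KYSE70. NOTCH3 was the smallest part, at 8.36% ± 0.157 in KYSE70 and 9.37% ± 0.604 in NRF2null-KYSE70 (mean ± SD, n = 3). Each receptor share was apart between the lines in all libraries, and the NOTCH1 share was lower by 8.64 points on average while its own count was not. The ratio of NOTCH2 to NOTCH1 counts was 1.83 ± 0.0995 in KYSE70 and 2.69 ± 0.144 in NRF2null-KYSE70 (mean ± SD, n = 3).

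Among the ligands, DLL1 was higher in NRF2null-KYSE70, and neither of the Jagged genes passed the test. DLL1 (ENSG00000198719, chr6:170282206-170306565, minus strand) encodes a Delta-type ligand. It had normalized counts of 2454, 2214 and 2202 in KYSE70 against 4517, 3627 and 3954 in NRF2null-KYSE70. The lowest library of NRF2null-KYSE70 lay far above the highest of KYSE70. The mean rose 1.76-fold, from 2289.9 ± 142 to 4033 ± 449.8 (SD, n = 3; log2 fold change 0.81, SE 0.0776, adjusted p = 1.7e-06 by limma). DLL1 overlaps FAM120B, which lies on the opposite strand, and whether the counting used strand was not stated, so reads of the overlap cannot be assigned to one of them with certainty. FAM120B had means of 3385 ± 222 in KYSE70 and 3342 ± 123 in NRF2null-KYSE70 (mean ± SD, n = 3), with a log2 fold change of -0.02 (adjusted p = 0.831 by limma).

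JAG1 (ENSG00000101384, chr20:10637684-10673999, minus strand) was the most abundant of the 10 genes per kilobase. Its normalized counts were 13993, 12984 and 12676 in KYSE70 against 13747, 11769 and 11898 in NRF2null-KYSE70. The lines overlapped, and the log2 fold change was -0.09 (95% confidence interval -0.22 to 0.05, adjusted p = 0.264 by limma). JAG1 lies on chromosome arm 20p, whose genes had a median log2 fold change of -0.74, and the 40 nearest tested protein-coding genes had a median of -0.58. Its direct neighbors SLX4IP and BTBD3 had log2 fold changes of -1.23 (adjusted p = 5.02e-08) and -0.24 (adjusted p = 0.00673) in the same limma fit. Relative to its arm, JAG1 stood at 0.66 (adjusted p = 2.38e-06 by limma). Here and below, such a p takes the median of the arm as fixed and leaves out the spread of genes around it. The part of the arm in the level of JAG1 was not tested.

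JAG2 (ENSG00000184916, chr14:105140982-105168824, minus strand), a Jagged-type ligand known from basal keratinocytes, had normalized counts of 8118, 7493 and 7570.2 in KYSE70 against 9530.2, 7252 and 7714 in NRF2null-KYSE70. The first library of NRF2null-KYSE70 was the highest of all and its second the lowest, so the lines overlapped. The log2 fold change was 0.07 (95% confidence interval -0.11 to 0.25, adjusted p = 0.491 by limma).

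Per kilobase of exon, DLL1 made up 18.8%, 18.4% and 18.5% of the summed level of the 3 ligands in KYSE70 and 28.5%, 28.4% and 29.4% in NRF2null-KYSE70. JAG1 stood at 44.0% ± 0.358 and 36.6% ± 1.11 and JAG2 stood at 37.4% ± 0.412 and 34.7% ± 1.08 (mean ± SD, n = 3). With these lengths the lines did not overlap in any of the 3 shares. With the length of 1 canonical transcript, a choice made after seeing the data, the lines overlapped in the JAG2 share, which then differed by -1.31 points in place of -2.75 (adjusted p = 0.3, exact permutation test). The ratio of DLL1 to JAG1 counts was 0.173 ± 0.00245 in KYSE70 and 0.323 ± 0.0130 in NRF2null-KYSE70 (mean ± SD, n = 3). For all 6 shares per kilobase of exon and all 3 ratios computed, the two-sided exact permutation test gave p = 0.1 before and after Benjamini-Hochberg adjustment, which is the smallest value that 3 libraries against 3 allow. Shares of one sum are tied to each other, so they are not 6 separate findings.

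**Figure D2:**
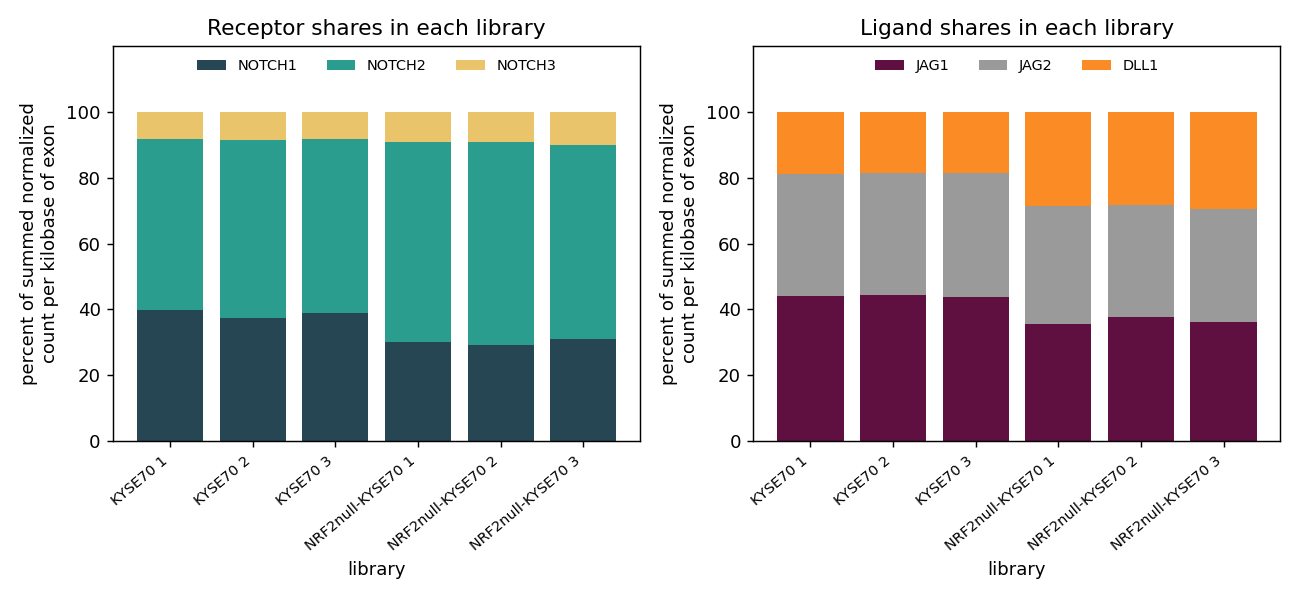
Share of each receptor (left) and ligand (right) in the summed normalized count per kilobase of exon, in percent, with 1 stacked bar per library. The DLL1 segment covers 18.4% to 18.8% in the KYSE70 libraries and 28.4% to 29.4% in the NRF2null-KYSE70 libraries, and the NOTCH1 segment is smaller in each library of NRF2null-KYSE70.

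RBPJ (ENSG00000168214, chr4:26163455-26435131, plus strand), through which all 4 Notch receptors act, was not told apart between the lines by the test. Its normalized counts were 3969, 4010.2 and 4139.9 in KYSE70 against 3942, 3468 and 3901 in NRF2null-KYSE70. Each library of NRF2null-KYSE70 lay below each of KYSE70, the closest pair being 3942 and 3969. The log2 fold change was -0.10 (95% confidence interval -0.23 to 0.03, adjusted p = 0.158 by limma).

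Of the effectors, HEY1 was much lower in NRF2null-KYSE70, with only small changes in NRARP (lower) and HES1 (higher). HEY1 (ENSG00000164683, chromosome arm 8q) encodes a basic helix-loop-helix repressor that can bind DNA as a partner of HES proteins, among other forms. It had normalized counts of 1119.7, 1313 and 1176 in KYSE70 against 384, 278 and 342 in NRF2null-KYSE70. The lines lay far apart, with the highest library of NRF2null-KYSE70 well under the lowest of KYSE70. The mean fell from 1203 ± 99.7 to 335 ± 53.9 (mean ± SD, n = 3), to 27.8% of that in KYSE70 (log2 fold change -1.85, SE 0.12, adjusted p = 4.52e-08 by limma). HEY1 was the only one of the 10 past the fold threshold, and the next lowest was NRARP at -0.16. The 40 tested protein-coding genes nearest to it had a median log2 fold change of 0.02. In RNA from whole cultures, fewer cells that transcribe a gene and less RNA per cell cannot be told apart.

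HES1 (ENSG00000114315, chr3:194136148-194138732, plus strand) encodes the founding HES repressor, a textbook read-out of Notch activity. Its normalized counts were 2182, 2162 and 2366 in KYSE70 against 2413, 2563 and 2479.5 in NRF2null-KYSE70. The lowest library of NRF2null-KYSE70 was above the highest of KYSE70 by a small margin. The log2 fold change was 0.15 (SE 0.0593, adjusted p = 0.0427 by limma). The adjusted p rose above 0.05 without KYSE70 library 1 (0.125) or 2 (0.146) and without NRF2null-KYSE70 library 2 (0.137) or 3 (0.0857). Genes of its arm, 3q, had a median log2 fold change of 0.28, and relative to the arm HES1 stood at -0.13 (adjusted p = 0.0932 by limma).

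NRARP (ENSG00000198435, chr9:137299631-137302271, minus strand), which is induced by Notch and limits the life of the receptor's intracellular domain, had normalized counts of 2363, 2239 and 2323 in KYSE70 against 2175, 1985 and 2050.3 in NRF2null-KYSE70. All 3 libraries of NRF2null-KYSE70 were below those of KYSE70. The log2 fold change was -0.16 (SE 0.0594, adjusted p = 0.037 by limma). The adjusted p rose above 0.05 without KYSE70 library 1 (0.114), 2 (0.053) or 3 (0.0922) and without NRF2null-KYSE70 library 2 (0.134) or 3 (0.0889). The arm of NRARP, 9q, had a median of -0.15, and relative to it NRARP stood at -0.01 (adjusted p = 0.947 by limma). The part of the arms in the levels of HES1 and NRARP was not tested.

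HEY1 thus fell relative to HES1. HES1 itself changed little, with a log2 fold change of 0.15, or -0.13 relative to its arm. The ratio of HEY1 to HES1 counts was 0.513, 0.607 and 0.497 in the KYSE70 libraries and 0.159, 0.108 and 0.138 in the NRF2null-KYSE70 libraries. The ratio stood about 4 times lower in the edited line, with means of 0.539 ± 0.0597 and 0.135 ± 0.0256 (mean ± SD, n = 3).

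**Figure D3:**
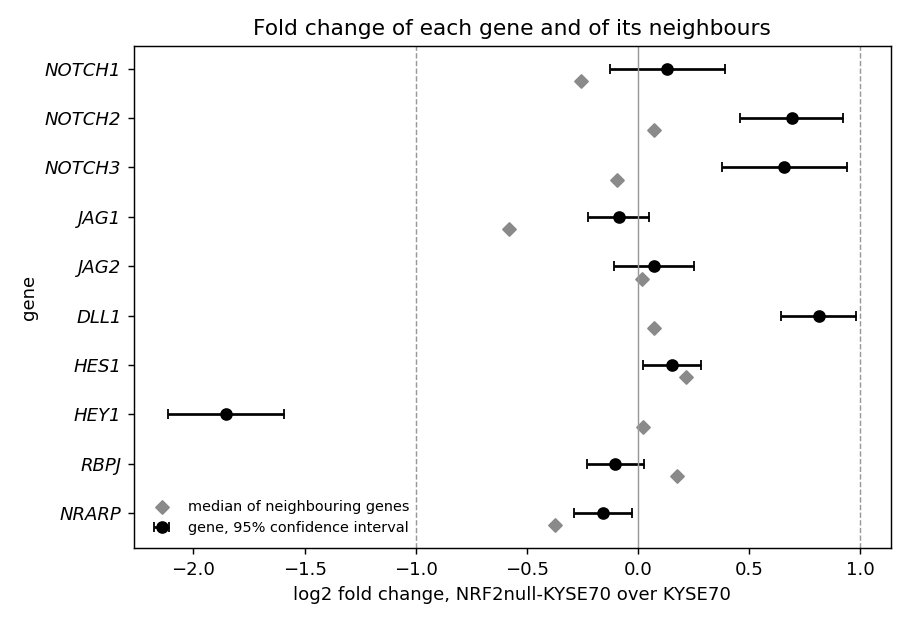
Log2 fold change of each of the 10 genes, NRF2null-KYSE70 over KYSE70, with its 95% confidence interval (black), beside the median log2 fold change of the nearest tested protein-coding genes, 20 on each side where the chromosome holds them (gray diamonds). Solid and dashed lines mark 0 and the fold threshold of 1. HEY1 lies at -1.85 with its neighbors at 0.02, and JAG1 at -0.09 with its neighbors at -0.58.

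Beside the tested genes nearest to them, NOTCH2, NOTCH3 and DLL1 stood out as well. Neighbors were taken along the chromosome and not the arm, so those of NOTCH2, on 1p, may include genes of 1q. The medians of the neighboring genes were 0.07, -0.09 and 0.07, and relative to their arms the genes stood at 0.66, 0.65 and 0.67 on the log2 scale. The neighbors of NOTCH1 had a median of -0.26 and those of NRARP, on the same arm, of -0.38.

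For an order of levels, the genes were set side by side as normalized counts per kilobase of exon. The ratios of counts given above were not divided by length, so they compare the lines and not the levels of 1 gene with another. In KYSE70 the order was JAG1 (1422 ± 74.1), JAG2 (1208 ± 53.2), HES1 (1086 ± 54.6), NRARP (874 ± 24), DLL1 (599.6 ± 37.2), RBPJ (264 ± 5.82), NOTCH2 (244 ± 23.4), HEY1 (219 ± 18.2), NOTCH1 (179 ± 23) and NOTCH3 (38.6 ± 3.74; SD, n = 3 for each). The ranges of mean ± SD overlapped between RBPJ and NOTCH2, between NOTCH2 and HEY1 and between HEY1 and NOTCH1, and not between the other neighbors in this order. In NRF2null-KYSE70, DLL1 (1056 ± 118) stood above NRARP (784 ± 36.5), NOTCH2 (397 ± 74.8) above RBPJ (246 ± 17.1), and HEY1 (61 ± 9.82) level with NOTCH3 (61.2 ± 9.84). There JAG1 (1341 ± 119), JAG2 (1277 ± 188), HES1 (1207 ± 36.6) and DLL1 overlapped from neighbor to neighbor, as did RBPJ and NOTCH1 (197 ± 37.9). The order depends on the length used. With the length of 1 canonical transcript, a choice made after seeing the data, RBPJ in KYSE70 stood at 749 ± 16.5 and HEY1 at 548 ± 45.4, both above NOTCH2 at 358 ± 34.2.

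The spread within a line had a shared form. The first library was the highest of its line in both lines for 7 of the 10 genes, against 21.6% of tested genes. Long genes shared this form, which was seen in 38.1% of the 2856 tested genes with at least 9000 bases of exon and 18.0% of the other 13138. Its part in the levels of the Notch genes was not tested.

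Of 76 other genes of the pathway, listed by role, 73 had enough reads for the test. They included 28 that were higher, 14 that were lower and 31 that did not pass the test, and 9 higher and 4 lower genes were past the fold threshold as well. Of all tested genes, 29.3% were higher and 28.3% lower, and 7.23% and 7.43% were past the fold threshold as well. These shares are the background for the counts by role below, none of which was tested as a set. The median log2 fold change was 0.13 for the 73 genes and -0.01 for all tested genes.

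Several of the larger rises were in genes whose proteins cut and sort the receptor. Others, such as those of MFNG and TLE4, lay in other roles. Of 9 tested genes for receptor cleavage, 5 were higher and 1 lower. ADAM10, the protease that makes the first ligand-induced cut, had normalized counts of 8175, 8312 and 7632 in KYSE70 against 20805, 18352 and 18112 in NRF2null-KYSE70. The lines were far apart, with a 2.37-fold difference (log2 fold change 1.25, SE 0.059, adjusted p = 2.65e-09 by limma). APH1B, a subunit of gamma-secretase, rose from 359 ± 15 to 979 ± 76.5 (SD, n = 3; log2 fold change 1.44, adjusted p = 4.92e-08 by limma). In the same role, APH1A fell from 9822 ± 291 to 7565 ± 468 (SD, n = 3; log2 fold change -0.38, adjusted p = 5.09e-05 by limma). ADAM10 and APH1B lie on 15q, whose median log2 fold change was 0.33, and the genes nearest to ADAM10 had a median of 0.58. Relative to the arm, ADAM10 stood at 0.92, which is under the fold threshold, and APH1B at 1.11. The part of the arm in these values was not tested.

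Of 13 tested genes for receptor turnover, 8 were higher and 3 lower. NEDD4, a ubiquitin ligase that also lies on 15q, rose from 5741 ± 126 to 15169 ± 741 (SD, n = 3; log2 fold change 1.40, adjusted p = 1.77e-10 by limma). NEDD4L fell from 2738 ± 127 to 1498 ± 97.2 (SD, n = 3; log2 fold change -0.87, adjusted p = 2.17e-07 by limma). The Deltex family of ubiquitin ligases, some members of which act on Notch receptors, split. What each member does to Notch receptors in these cells was not measured. DTX2 rose from 719 ± 46.1 to 2099.7 ± 32.2 (log2 fold change 1.55, adjusted p = 2.16e-09 by limma) and DTX4 fell from 243 ± 20.4 to 107 ± 13.7 (log2 fold change -1.19, adjusted p = 4.77e-05 by limma), with n = 3 and the SD given. DTX3L (chr3:122564338-122575203) had no read in any KYSE70 library and normalized counts of 520.3, 483 and 498 in NRF2null-KYSE70. Set against 3 reads in each KYSE70 library, it was at least 175.6-fold higher (adjusted p = 6.5e-10 by limma). A count of 0 is a limit of detection and this bound covers counting error only.

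**Figure D4:**
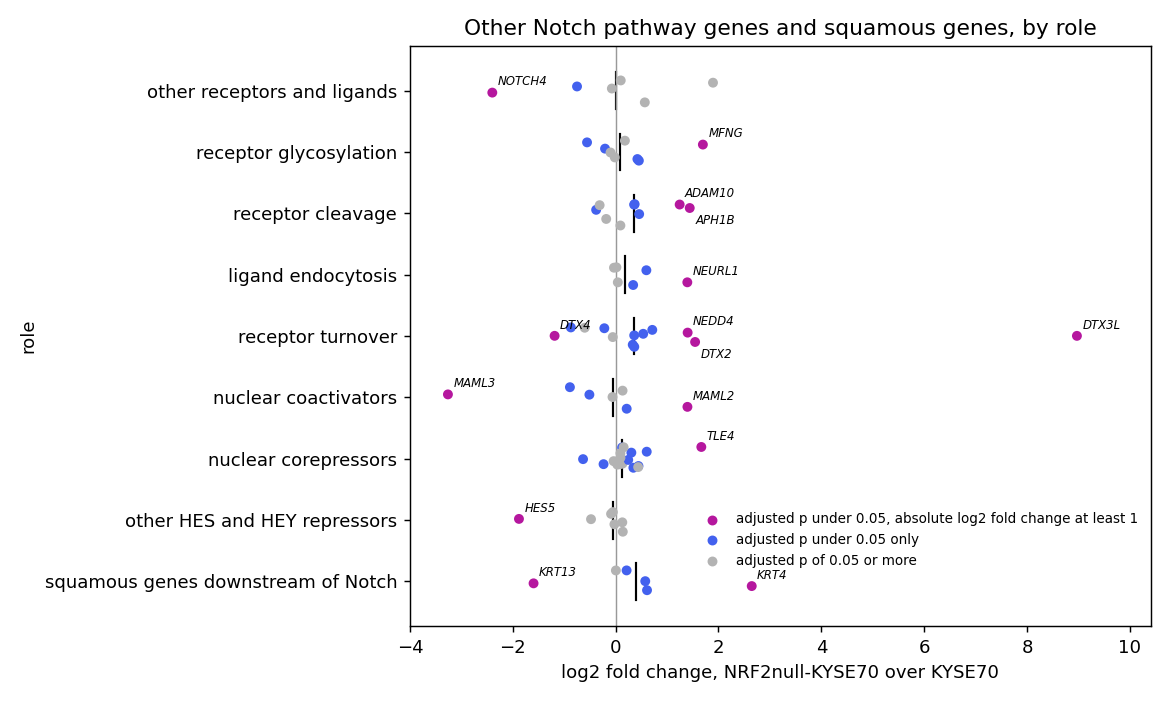
Log2 fold change, NRF2null-KYSE70 over KYSE70, of the tested genes of each role, with 1 point per gene and a black bar at the median of each role. Genes past both thresholds are named, and the DTX3L point at 8.97 depends on the 1 added to each count because KYSE70 had no read. Most points lie within 1 of 0, with ADAM10, APH1B, NEDD4, DTX2, MAML2 and TLE4 to the right and MAML3, DTX4 and HES5 to the left.

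In the nucleus, coactivators of the Mastermind-like family moved apart. Of 7 tested coactivator genes, 2 were higher and 3 lower. MAML2 rose from 1019 ± 119 to 2683 ± 312 (SD, n = 3; log2 fold change 1.40, SE 0.0973, adjusted p = 8.89e-08 by limma). MAML3 had normalized counts of 123, 102 and 122 in KYSE70 against 17.2, 6.86 and 11.4 in NRF2null-KYSE70, and fell to 10.2% of the parental mean (log2 fold change -3.26, SE 0.354, adjusted p = 5.33e-06 by limma). MAML1, with the most counts of the 3, had means of 3742 ± 102 and 3602 ± 385 (mean ± SD, n = 3) and did not pass the test (adjusted p = 0.486 by limma). Of 17 tested corepressor genes, 7 were higher and 2 lower. In the Groucho-like group, through which HES proteins silence genes, TLE4 rose and TLE3 fell. TLE4 went from 744 ± 14.6 to 2368 ± 163 (log2 fold change 1.67, adjusted p = 1.05e-09 by limma). TLE3 went from 3551 ± 309 to 2295 ± 268 (log2 fold change -0.63, adjusted p = 3.43e-05 by limma), with n = 3 and the SD given for both.

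Of 7 other tested HES and HEY genes, 1 was lower and none was higher. HES5 had normalized counts of 48, 40.8 and 27.4 in KYSE70 against 3.04, 11.8 and 21.7 in NRF2null-KYSE70 (log2 fold change -1.88, adjusted p = 0.0144 by limma), and its adjusted p was 0.0557 without KYSE70 library 1 and without KYSE70 library 2. HEY2, the closest relative of HEY1, had 39.1, 48.1 and 47.5 in KYSE70 against 30.4, 34.3 and 30.8 in NRF2null-KYSE70. The HEY2 libraries did not overlap but the difference did not pass the test (log2 fold change -0.48, 95% confidence interval -1.11 to 0.15, adjusted p = 0.178 by limma).

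The remaining roles act on the receptor or the ligand before cleavage. Of 6 other receptor and ligand genes tested, none was higher and 2 were lower. DLK2 fell from 820 ± 16.9 to 487 ± 16.7 (SD, n = 3; log2 fold change -0.75, adjusted p = 7.34e-06 by limma). NOTCH4 had only 17.8, 22.7 and 51.7 in KYSE70 against 0, 7.84 and 17.1 in NRF2null-KYSE70 (log2 fold change -2.40, adjusted p = 0.0363 by limma), and its adjusted p was 0.0818, 0.141 and 0.0794 without KYSE70 library 2, KYSE70 library 3 and NRF2null-KYSE70 library 1, in that order. CNTN1, a contactin that can bind Notch receptors, had 14.2, 0.907 and 6.33 in KYSE70 against 9.13, 42.2 and 24 in NRF2null-KYSE70, with overlap between the lines, and its adjusted p was 0.055 in limma and 0.0357 in DESeq2. Of 8 genes for receptor glycosylation, 3 were higher and 2 lower. MFNG, a fringe enzyme that tunes which ligands a receptor answers, rose from 24 ± 4.41 to 79.1 ± 1.19 (log2 fold change 1.70, adjusted p = 0.000196 by limma), and XXYLT1, which extends a sugar chain on the receptor, fell from 5335 ± 214 to 3636 ± 289.9 (log2 fold change -0.56, adjusted p = 7.45e-06 by limma), with n = 3 and the SD given. Of 6 genes for ligand endocytosis, 3 were higher and none lower. NEURL1 rose from 80.3 ± 10.6 to 214 ± 41 and MIB1, the main ligase that sends ligands into the endocytic route, from 5677 ± 222 to 8607 ± 687 (SD, n = 3; log2 fold changes 1.39 and 0.60, adjusted p = 5.97e-05 and 2.57e-06 by limma).

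Squamous genes known to lie downstream of Notch were mixed as well, with 4 of 6 tested genes higher and 1 lower. The shares of all tested genes were 29.3% and 28.3%. KRT13, a keratin of the suprabasal layers of the esophagus, had normalized counts of 12304, 12301 and 12865 in KYSE70 against 3818, 4104 and 4506 in NRF2null-KYSE70, and fell to 33.2% of the parental mean (log2 fold change -1.59, SE 0.0596, adjusted p = 3.08e-10 by limma). Its usual partner keratin KRT4 had 13.3, 39 and 36.9 in KYSE70 against 158, 195 and 170.1 in NRF2null-KYSE70, and rose from that low level (log2 fold change 2.65, SE 0.353, adjusted p = 3.3e-05 by limma). CDKN1A, an inhibitor of the cell cycle, and PAX9, a transcription factor of squamous epithelium, were also higher, by log2 fold changes of 0.58 and 0.61 (adjusted p = 1.5e-06 and 0.00014 by limma), and KRT10 stood at 0.01 (adjusted p = 0.966 by limma). KRT1 and IVL had too few reads for the test.

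All 8 genes listed as markers of squamous epithelium were read in every library, from 564 normalized counts up. The stromal marker COL1A1 lay above that level in each KYSE70 library, so being read does not by itself set squamous cells apart. Levels of the 8 markers differed between the lines. KRT6A, KRT17, EPCAM and CDH1 were higher in NRF2null-KYSE70, and TP63, KRT5, DSG3 and SFN were lower. None was past the fold threshold. Their means in NRF2null-KYSE70 ran from 52.7% (SFN) to 161% (KRT6A) of those in KYSE70. Of 12 markers of blood, endothelial and stromal cells, 8 were at 3 reads or fewer in each KYSE70 library and 6 in each NRF2null-KYSE70 library, COL1A2 among them at 0 throughout. The summed level of the 12 was 1529 to 1767 in KYSE70 and 800 to 1108 in NRF2null-KYSE70. Most of it came from COL1A1, a collagen gene, with means of 1232 ± 88.4 and 554 ± 78.9 (mean ± SD, n = 3). COL3A1, also a collagen gene, was at 257 ± 38.7 and 8.46 ± 2.56, VWF, an endothelial gene, at 142 ± 8.46 and 353 ± 88.8, and PTPRC, a gene of blood cells, had at most 1 read in a KYSE70 library and a mean of 43.6 ± 3.96 in NRF2null-KYSE70. The part of these markers in the levels of the Notch genes was not tested.

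**Figure D5:**
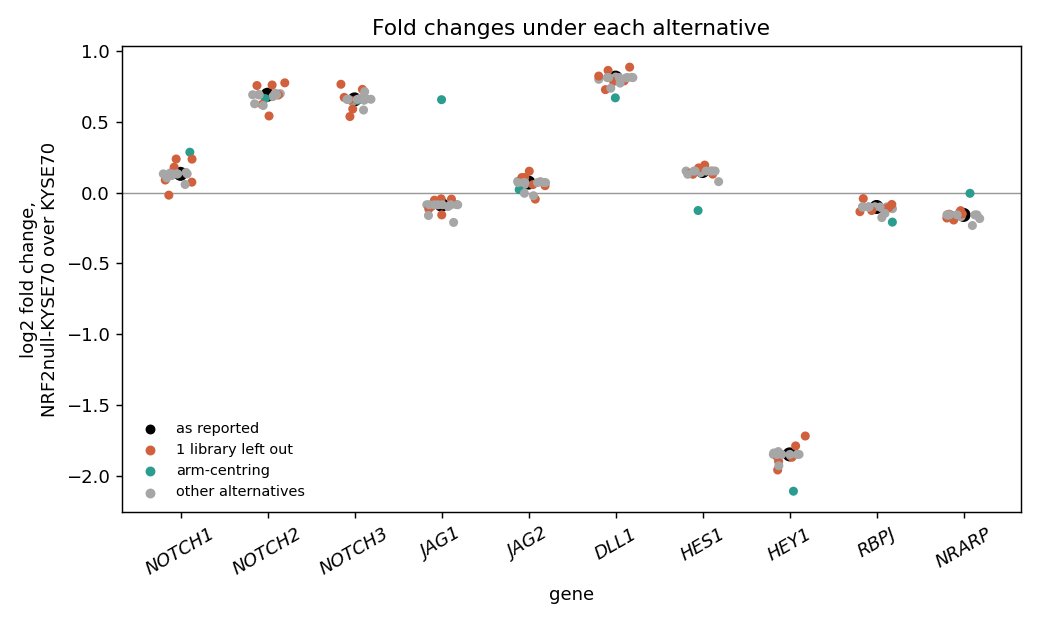
Log2 fold change of each of the 10 genes as reported (black) and under each of 18 alternatives, with 1 library left out (orange), relative to the chromosome arm (green) and under other scalings, filters, pseudocounts and tests (gray). HEY1 stays between -2.11 and -1.72 and DLL1 between 0.67 and 0.89, whereas JAG1, JAG2, NOTCH1 and HES1 each cross 0 under at least 1 alternative.

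Across the alternatives, NOTCH2 stayed between 0.54 and 0.78, NOTCH3 between 0.54 and 0.77 and DLL1 between 0.67 and 0.89 on the log2 scale, and all 3 kept an adjusted p under 0.05 in each of the 18. HEY1 kept its direction, its adjusted p and its fold threshold in each. For NOTCH1 and JAG2 the sign of the log2 fold change rested on NRF2null-KYSE70 library 1, without which they stood at -0.02 and -0.05, and JAG2 also changed sign under quantile normalization and scaling to the library total.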

How the data were processed

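The authors sequenced total RNA from KYSE70 and NRF2null-KYSE70 cells (3 libraries each), aligned reads with STAR 2.6.90c to hg38, counted them per gene with featureCounts 1.5.1 and normalized with DESeq2. The submitters' processing notes also list FastQC 0.11.5, cutadapt 1.12 and mm10. Genes carry Ensembl identifiers, although RefSeq is the annotation named in the methods. Use of strand and treatment of reads with several alignments are not given in the sources used here. The deposited values are a signal, namely read counts divided by 1 size factor per library. All were whole multiples of 1 read within 0.02, so the reads could be recovered, and totals ran from 52072801 to 63975313 per library. Columns name the line but no replicate.

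The test was limma 3.58.1 in R 4.3.3 (lmFit, eBayes with trend) on log2(normalized count + 1), two-sided, over the 15994 genes with a mean of at least 10, with Benjamini-Hochberg adjustment over all of them. The thresholds were an adjusted p of 0.05 and an absolute log2 fold change of 1. Confidence intervals are limma's at 95%. The scripts were tested on simulated data. A gene with 3 reads or fewer in each library of a line was taken to be at the floor. Shares were tested by exact permutation over libraries. Positions and exon lengths came from GENCODE v44, in which 58472 identifiers were found, and promoters from RefSeq on GRCh38.p14, searched on both strands for 8 of the 10 genes, including 50 bases after the start that are not printed.

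Named genes are the 10 genes, NFE2L2, of each pathway list and of the squamous list the 2 with the largest absolute log2 fold change and every gene past both thresholds, and near-identical copies. MAML1, CDKN1A, PAX9, KRT10, FAM120B, COL1A1, COL1A2, COL3A1, VWF, PTPRC, MINDY2, RNF111 and the neighbors of JAG1 and of DTX3L were named after their values were seen. So were APH1A, NEDD4L, DLK2 and the squamous markers. The values of 1 gene of the squamous list are not reported here. The members and lists were chosen with earlier results of these data known. Alternatives were edgeR 4.0.16 and DESeq2 1.42.0 on recovered reads, TMM, quantile and total scaling, a pseudocount of 0.1 or 5, a filter at 50 or none, limma without trend, robust or with its treat test, adjusted p alone, subtraction of the median of each chromosome arm (arm-centring), and each library left out. For shares, canonical transcript length was added after seeing the data.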

Additional observations from a re-analysis of the deposited data

How the results depend on the processing

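No paired analysis was possible because the columns of the table carry the name of the line and no replicate number. For the 10 genes, 180 values under alternatives comprised 150 on the same side of an adjusted p of 0.05 with the same sign, 17 that lost it, 7 that gained it and 6 of opposite sign. The values of opposite sign were NOTCH1 at -0.0184 and JAG2 at -0.0462 without NRF2null-KYSE70 library 1, JAG2 at -0.0225 with quantile normalization and -0.00509 with scaling to the library total, and, relative to the chromosome arm, JAG1 at 0.656 and HES1 at -0.127. Scaling to the library total moved the median of all genes by -0.08. With 1 library left out, NOTCH1 ranged up to 0.237 and JAG2 up to 0.151. HES1 lost its adjusted p in 9 alternatives and NRARP in 8. JAG1 gained one in 3 and RBPJ in 4, all of them lower in NRF2null-KYSE70. For the other 23 named genes, 408 values held 386 on the same side, 9 that lost and 13 that gained it, and none of opposite sign. The log2 fold change of NFE2L2 stayed between -0.799 and -0.671.

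By adjusted p alone, 4 of the 10 genes were higher and 2 lower, and 28 of the other pathway genes were higher and 14 lower. Past both thresholds, the lower pathway genes numbered 4 as reported, 2 without the trend, 2 with a filter at 50 (which removes NOTCH4 and HES5 from the test), 1 with the treat test, and 2 to 4 with 1 library left out, the 2 without KYSE70 library 2. No other count of genes past both thresholds moved by more than 1.5 times. The cause was not tested. Shares per kilobase kept their direction in every alternative run. With canonical transcript length, the JAG2 share differed by -1.31 points in place of -2.75 (adjusted p = 0.3, exact permutation test). Coding lengths from RefSeq were not run.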

Other observations

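DTX3L shares its place on chromosome 3 with PARP9, to whose protein the DTX3L protein binds. PARP9 was looked at after the values of DTX3L were seen. It had 1 read over the 3 KYSE70 libraries and normalized counts of 208, 252 and 265 in NRF2null-KYSE70, at least 84.7-fold higher when set against 3 reads in each KYSE70 library (limma adjusted p = 2.39e-08). The neighboring pair was thus near or at 0 in the parental line and read in all 3 libraries of the clone. MINDY2, next to ADAM10 on 15q and also looked at afterwards, had a log2 fold change of 1.33 (limma adjusted p = 8.91e-09), close to the 1.25 of ADAM10, and RNF111, a little farther away, one of 0.38 (limma adjusted p = 0.000212).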
